A study of Mus musculus with 10 samples.

Results

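The 34 genes described here encode proteins that make a neuron a neuron: the machinery that releases transmitter, the enzymes and transporters that make and pack it, the receptors and scaffolds that receive it, and the cytoskeleton and RNA-binding proteins of the neuronal cell body and axon. They form a named list of neuron and synapse genes with no threshold on a measured value, and all 34 are among the 16895 genes listed for each of 10 mouse tumors. The tumors followed from chicken DF1 cells, which produce an avian RCAS retrovirus, injected into the subarachnoid space of mice at p0 to p3, just after birth. The virus carried YAP1-MAML2-v2, which joins the transcriptional coactivator YAP1 to the Notch coactivator MAML2, or NLS-2SA-YAP1, an active form of YAP1. Every mouse lacked Cdkn2a and made the viral receptor tv-a from a Nestin construct, so these alleles do not separate the groups, and every library is labelled untreated. Nestin is a gene of neural progenitors, and RCAS virus enters only cells that make tv-a.

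The intra ventricular group is a lone tumor, YAP1-MAML2-v2 replicate 7 (n = 1). The extra axial group (n = 3) holds NLS-2SA-YAP1 replicate 1 and YAP1-MAML2-v2 replicates 2 and 6. The extra cranial group (n = 6) holds NLS-2SA-YAP1 replicates 2 and 3 and YAP1-MAML2-v2 replicates 1, 3, 4 and 5. By construct there are thus 3 NLS-2SA-YAP1 and 7 YAP1-MAML2-v2 tumors. The only NLS-2SA-YAP1 tumor among the extra axial ones is replicate 1, and no NLS-2SA-YAP1 tumor is intra ventricular. Nothing in the labels says that each tumor came from its own animal, so p-values measure only the spread between these samples. The deposited files of YAP1-MAML2-v2 replicates 6 and 7 share a leading number that no other pair shares, and the labels do not say whether they came from 1 animal. Normal brain and tissue without virus were not analysed here. The deposited values sum to between 28001143 and 44544314 per library, but they are not plain read counts, so sequencing depth is unknown.

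At a synapse, an action potential opens calcium channels in the axon ending, and vesicles loaded with transmitter fuse with the membrane through a complex that includes SNAP25. Glutamate or GABA then crosses the cleft and opens receptors held in place by scaffold proteins. Neurons are post-mitotic cells of brain, cord and ganglia, and most of these genes serve as their markers. In bulk tissue, fewer neurons and less neuronal RNA per cell cannot be told apart.

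Most of these genes were higher in the intra ventricular tumor than in any other tumor. It had the highest value of the 10 libraries in 32 of the 34 members, while it was highest in 21.5% of the 15900 genes seen in any library. The exceptions were TUBB3 and THY1, which were abundant in tumors of both other regions. The median member was higher by 4.91 on the log2 scale in the intra ventricular library than in the mean of the other 6 YAP1-MAML2-v2 libraries, against -0.02 for the median of the genes seen in any library. With 1 library there is no test of this difference, and no statement on intra ventricular tumors in general follows from it. The members were chosen with earlier results of these data known, so these counts are a description. Levels are given in CPM, the deposited value scaled to a common library total after TMM. A log2 difference uses a prior count of 2. For members listed at 0 or 1 in other tumors, the size of that difference depends on the prior count.

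**Figure D1:**
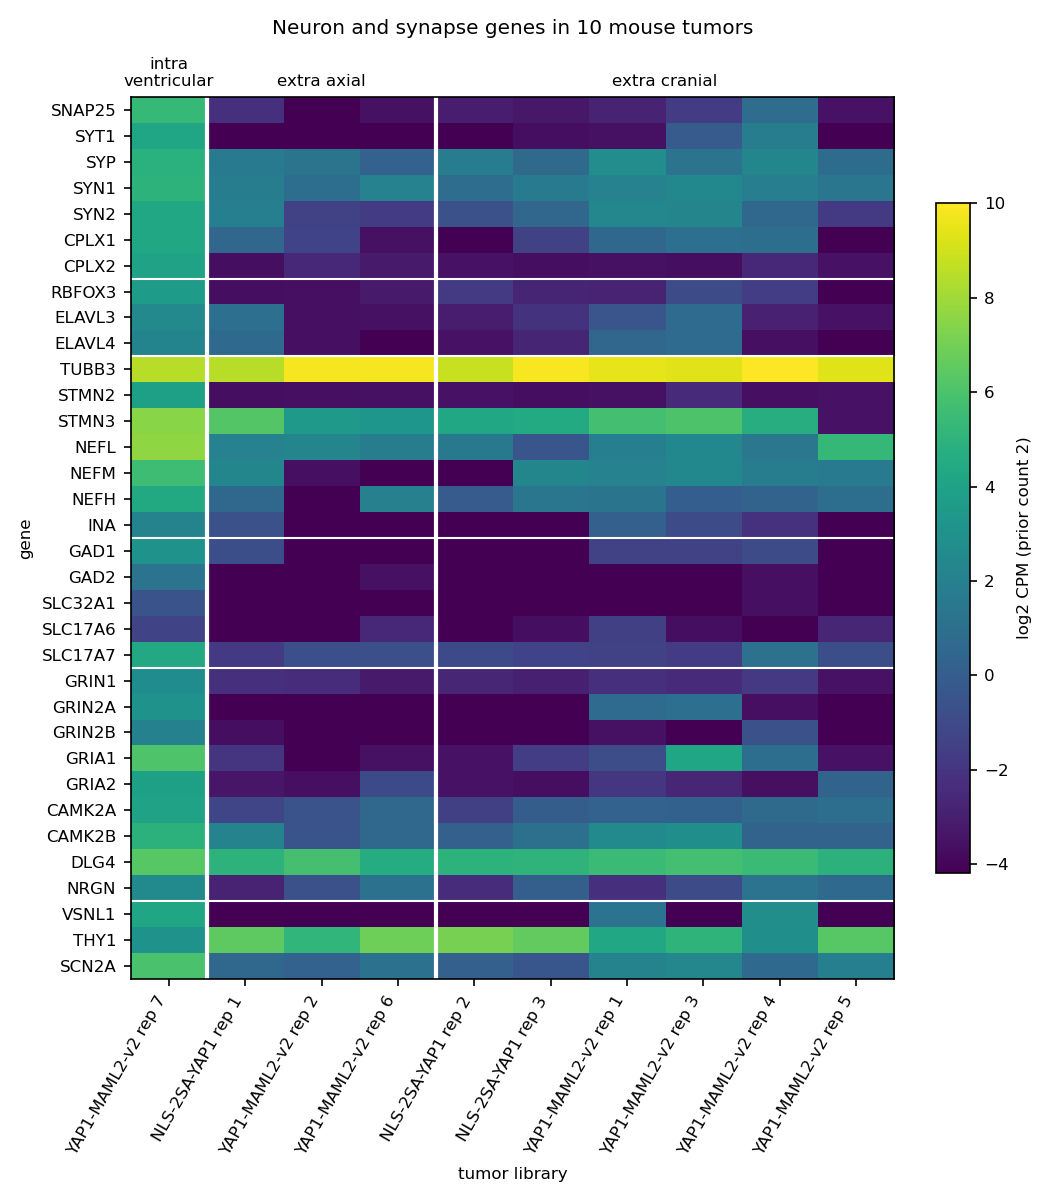
Log2 CPM (prior count 2) of the 34 members, by role from top to bottom, in each of the 10 libraries, ordered as intra ventricular, extra axial and extra cranial. The intra ventricular column is the brightest in 32 rows, and the rows of TUBB3 and DLG4 are bright in every library.

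A 4-fold difference was used to call a member in this comparison. Of the 25 members that passed a filter on low values, 22 were at least 4-fold higher in the intra ventricular library than in the mean of the other YAP1-MAML2-v2 libraries, against 13.9% of the 13707 genes tested. The intra ventricular library took part in that filter and could be the one that let a member pass, so the 22 are not read as support. Over all 34 members, 30 were at least 4-fold higher, against 15.3% of the genes seen in any library. THY1 was the only member at least 4-fold lower, against 7.36% of the genes tested and 6.52% of the genes seen in any library. Its difference was -2.05, and it was -1.94, short of 4-fold, when DESeq2 size factors replaced TMM, -1.70 without YAP1-MAML2-v2 replicate 6 and -1.80 without YAP1-MAML2-v2 replicate 5. The remaining 3 of the 34 members, TUBB3, DLG4 and SLC17A6, differed by less than 4-fold.

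**Figure D2:**
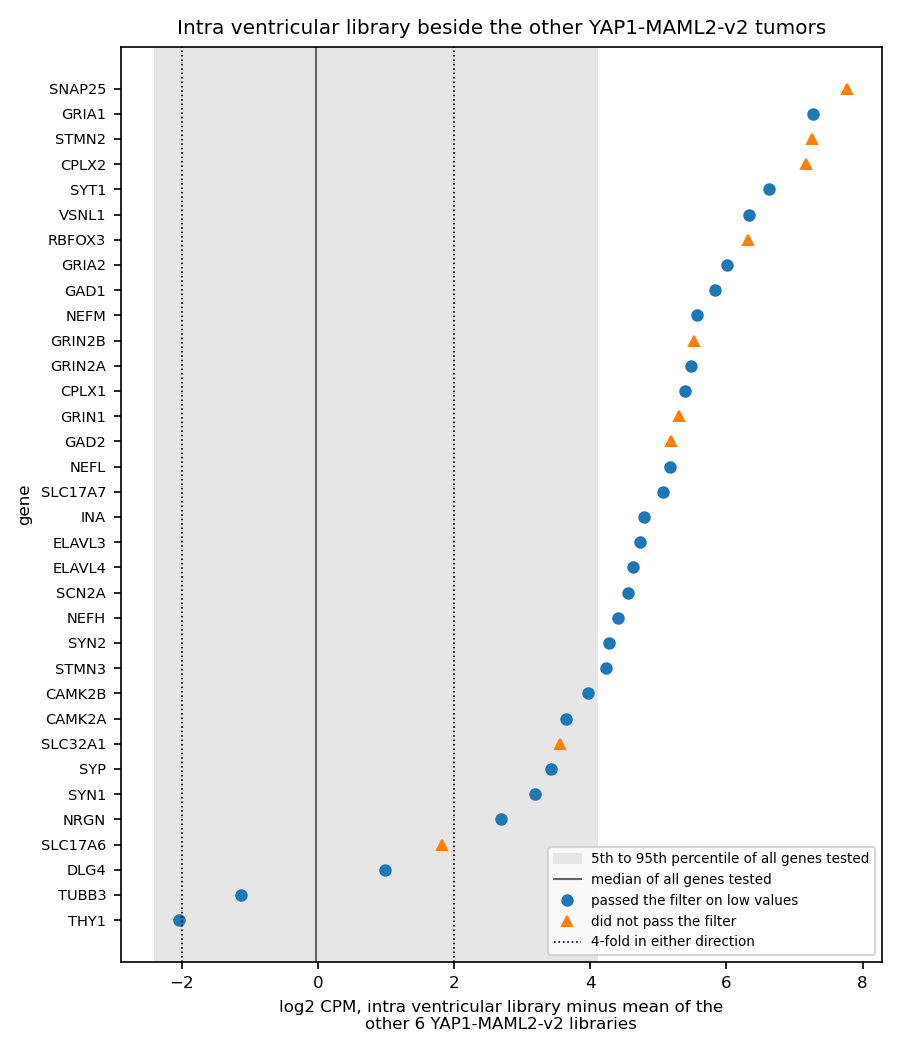
Difference in log2 CPM between the intra ventricular library and the mean of the other 6 YAP1-MAML2-v2 libraries for each member, with the 5th to 95th percentile of all genes tested (-2.39 to 4.11) shaded and the 4-fold limits dotted. Most members lie to the right of the 4-fold limit, and TUBB3 (-1.13) and THY1 (-2.05) lie left of 0.

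The first group of members releases transmitter. SNAP25, the membrane SNARE protein of the vesicle fusion complex, lies on mouse chromosome 2 at 136713453 to 136782428 (mm10). It had 39.8 CPM in the intra ventricular tumor, against 0.168 CPM in NLS-2SA-YAP1 replicate 1 and listed values of 0 and 1 in YAP1-MAML2-v2 replicates 2 and 6 among the extra axial tumors. Among extra cranial tumors SNAP25 had a median of 0.0788 CPM and was highest in YAP1-MAML2-v2 replicate 4, at 1.87 CPM. The intra ventricular level was 21.2 times that highest one, and no other tumor overlapped it.

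SYN1 and SYN2, the synapsins that tether vesicles to actin, were detected in every tumor. SYN1 had 31.8 CPM in the intra ventricular tumor, 3.57, 1.83 and 4.05 CPM in the extra axial tumors (NLS-2SA-YAP1 replicate 1, then YAP1-MAML2-v2 replicates 2 and 6), and a lowest, median and highest of 1.81, 3.37 and 5.24 CPM in the extra cranial tumors. The extra axial and extra cranial values of SYN1 overlapped throughout, and the intra ventricular value stood above both. SYN2 had 19.9 CPM in the intra ventricular tumor, 3.90, 0.315 and 0.253 CPM in the extra axial tumors in the same order, and 0.231, 1.42 and 5.15 CPM as the lowest, median and highest of the extra cranial tumors. SYN2 thus varied more than SYN1 outside the ventricle, with the higher values in NLS-2SA-YAP1 replicate 1 and YAP1-MAML2-v2 replicates 1 and 3.

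SYP, synaptophysin of the vesicle membrane, had 29.1 CPM in the intra ventricular tumor, 3.06, 2.31 and 1.10 CPM in the extra axial tumors, and 1.58, 2.92 and 6.84 CPM as the lowest, median and highest of the extra cranial tumors. Its pattern resembled that of SYN1, with overlap between the other 2 regions. SYT1, the calcium sensor for fast release, had 18.6 CPM in the intra ventricular tumor and was listed at 0 in all 3 extra axial tumors. In the extra cranial tumors it reached 3.49 CPM in YAP1-MAML2-v2 replicate 4 and 0.860 CPM in YAP1-MAML2-v2 replicate 3, and was listed at 0 or 1 in the other 4. The complexins clamp the fusion complex. CPLX1 had 19.6 CPM in the intra ventricular tumor and at most 1.96 CPM elsewhere, and CPLX2 had 15.9 CPM there and at most 0.113 CPM elsewhere. All 7 release genes were at least 4-fold higher in the intra ventricular tumor by the rule above.

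The RNA-binding proteins mark the neuronal cell body and nucleus. RBFOX3, the splicing factor detected as NeuN, had 12.3 CPM in the intra ventricular tumor, 0.0239, 0.0262 and 0.0562 CPM in the extra axial tumors, and at most 0.481 CPM in the extra cranial tumors, in YAP1-MAML2-v2 replicate 3. Values this low outside the ventricle include deposited values of 0 and 1. ELAVL3, one of the neuronal Hu proteins that stabilize mRNA, had 5.68 CPM in the intra ventricular tumor and 2.03 CPM in NLS-2SA-YAP1 replicate 1, while YAP1-MAML2-v2 replicates 2 and 6 were listed at 1. In extra cranial tumors ELAVL3 ran from 0.0330 to 1.62 CPM with a median of 0.130 CPM. ELAVL4, another Hu protein, had 4.66 CPM in the intra ventricular tumor and at most 1.67 CPM elsewhere. For all 3 of these genes, the intra ventricular value was above that of every other tumor.

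The cytoskeletal genes held both large differences and an exception. STMN2, a tubulin-binding protein of growing axons, had 14.7 CPM in the intra ventricular tumor, and its highest value elsewhere was 0.127 CPM in YAP1-MAML2-v2 replicate 3. STMN2 was listed at 0 or 1 in 8 libraries. Its relative STMN3 was widespread, with 182 CPM in the intra ventricular tumor, 77.6, 11.1 and 9.13 CPM in the extra axial tumors, and a median and highest of 24.5 and 66.8 CPM in the extra cranial tumors, where YAP1-MAML2-v2 replicate 5 was listed at 1. The intra ventricular value of STMN3 was 2.35 times the highest other value, in NLS-2SA-YAP1 replicate 1.

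The neurofilament genes form the intermediate filaments of axons. NEFL, the light chain, had 206 CPM in the intra ventricular tumor, 4.48, 4.72 and 3.20 CPM in the extra axial tumors, and 0.729, 3.33 and 38.6 CPM as the lowest, median and highest of the extra cranial tumors. The 38.6 CPM belonged to YAP1-MAML2-v2 replicate 5, the tumor in which STMN3 was listed at 1. NEFL and STMN3 thus went opposite ways in that tumor. NEFM, the medium chain, had 48.7 CPM in the intra ventricular tumor and at most 5.37 CPM elsewhere, and NEFH, the heavy chain, had 21.9 CPM there and at most 3.71 CPM elsewhere. INA, alpha-internexin, had 4.52 CPM in the intra ventricular tumor and at most 1.04 CPM elsewhere. NEFL and NEFM overlap in their annotated exons on opposite strands of chromosome 14, and the strand setting of the counting, not given in the sources used here, decides whether they were split, so reads in the shared stretch cannot be told apart.

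TUBB3, the class III beta-tubulin used as a neuronal marker, lies on chromosome 8 at 123411424 to 123422015 (mm10). It had 360 CPM in the intra ventricular tumor, 378, 881 and 879 CPM in the extra axial tumors, and 461, 687 and 1066 CPM as the lowest, median and highest of the extra cranial tumors. TUBB3 was thus lowest in the very tumor where most members were highest, as was the case for 16.5% of the genes seen in any library, and NLS-2SA-YAP1 replicate 1 lay close to it. Per kilobase of annotated exon, TUBB3 outside the ventricle had a median of 382 CPM, against 1.08 CPM for SYN1, 20.3 CPM for STMN3 and 1.11 CPM for NEFL. In the intra ventricular tumor the same scale gave 193 CPM for TUBB3, 161 CPM for STMN3 and 60.9 CPM for NEFL.

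**Figure D3:**
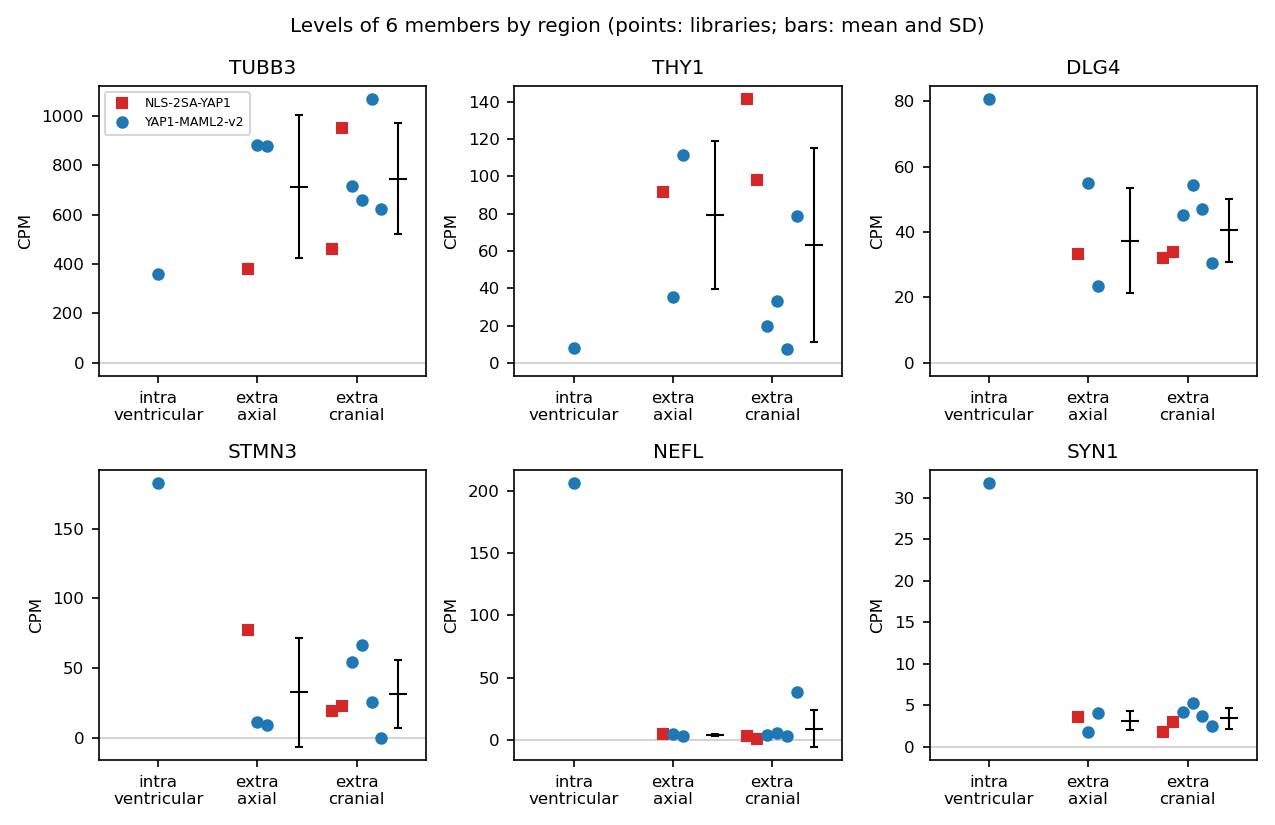
CPM of TUBB3, THY1, DLG4, STMN3, NEFL and SYN1 in each library by region, with squares for NLS-2SA-YAP1, circles for YAP1-MAML2-v2 and black bars for the mean and SD of the extra axial (n = 3) and extra cranial (n = 6) tumors. The intra ventricular point is highest for DLG4, STMN3, NEFL and SYN1, lowest for TUBB3 and near the bottom for THY1.

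Members that make or carry transmitter were low outside the ventricle. SLC17A7, which loads glutamate into vesicles, had 20.6 CPM in the intra ventricular tumor, 0.239, 0.550 and 0.534 CPM in the extra axial tumors, and 0.253, 0.398 and 2.16 CPM as the lowest, median and highest of the extra cranial tumors. SLC17A6, the other vesicular glutamate transporter measured, had 0.355 CPM in the intra ventricular tumor and 0.298 CPM in YAP1-MAML2-v2 replicate 1, so the libraries nearly met. GAD1, an enzyme that makes GABA, had 8.60 CPM in the intra ventricular tumor, 0.550 CPM in NLS-2SA-YAP1 replicate 1, and at most 0.482 CPM in the extra cranial tumors. GAD2, the other GABA enzyme, had 2.25 CPM in the intra ventricular tumor, and SLC32A1, which loads GABA into vesicles, had 0.639 CPM. Both were listed at 0 or 1 in every other tumor. Genes of glutamate and of GABA neurons were thus both present in the intra ventricular tumor.

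Among the receptors, GRIA1, a subunit of the AMPA glutamate receptor, had 69.3 CPM in the intra ventricular tumor, 0.191 CPM in NLS-2SA-YAP1 replicate 1 and listed values of 0 and 1 in the other extra axial tumors. In the extra cranial tumors GRIA1 had a median of 0.391 CPM with 18.4 CPM as the highest, in YAP1-MAML2-v2 replicate 3. GRIA2, the subunit that sets calcium permeability, had 15.0 CPM in the intra ventricular tumor and at most 1.19 CPM elsewhere. The NMDA receptor genes were likewise highest in the intra ventricular tumor. GRIN1, the obligatory subunit, had 6.46 CPM in the intra ventricular tumor and at most 0.227 CPM elsewhere. GRIN2A had 8.34 CPM there and was listed at 0 in the 3 extra axial tumors, with 1.90 CPM in YAP1-MAML2-v2 replicate 3 as the highest other value. GRIN2B had 4.05 CPM there and at most 0.596 CPM elsewhere.

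Behind the receptors lie kinases and scaffolds. CAMK2B, a subunit of the calcium-calmodulin kinase II, had 31.4 CPM in the intra ventricular tumor, 4.52, 0.655 and 1.35 CPM in the extra axial tumors, and 1.06, 1.64 and 7.21 CPM as the lowest, median and highest of the extra cranial tumors. CAMK2A, the alpha subunit abundant in forebrain excitatory neurons, had 16.0 CPM in the intra ventricular tumor and at most 1.81 CPM elsewhere. DLG4, which encodes the scaffold PSD-95, had 80.7 CPM in the intra ventricular tumor, 33.4, 55.0 and 23.6 CPM in the extra axial tumors, and 30.5, 39.7 and 54.3 CPM as the lowest, median and highest of the extra cranial tumors. Of the 32 members that were highest in the intra ventricular tumor, DLG4 had the smallest log2 difference, 0.98. NRGN, a calmodulin-binding protein of dendritic spines, had 5.75 CPM in the intra ventricular tumor and at most 2.30 CPM elsewhere.

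The remaining members are a surface protein, a calcium sensor and a channel. THY1, a glycolipid-anchored surface protein that fibroblasts and T cells carry as well as neurons, lies on chromosome 9 at 44043384 to 44048579 (mm10). It had 8.19 CPM in the intra ventricular tumor, 91.5, 35.0 and 112 CPM in the extra axial tumors, and 7.57, 55.7 and 141 CPM as the lowest, median and highest of the extra cranial tumors. Only YAP1-MAML2-v2 replicate 4 was lower than the intra ventricular tumor for THY1. VSNL1, a neuronal calcium sensor, had 18.5 CPM in the intra ventricular tumor and was listed at 0 in all 3 extra axial tumors, with 7.26 CPM in YAP1-MAML2-v2 replicate 4 and 2.23 CPM in YAP1-MAML2-v2 replicate 1. SCN2A, a sodium channel of axons, had 61.9 CPM in the intra ventricular tumor, 1.48, 1.13 and 2.02 CPM in the extra axial tumors, and 0.704, 2.61 and 5.16 CPM as the lowest, median and highest of the extra cranial tumors. No other tumor came near the intra ventricular value of SCN2A.

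Tumors outside the ventricle also differed from each other in these genes. At 1 CPM or more were 32 of the 34 members in the intra ventricular tumor, 15, 8 and 12 in the extra axial tumors in the order above, and 9 to 20 in the extra cranial tumors. The same level was reached by 80.3% of all genes in the intra ventricular library and by 73.4% to 78.1% in the others. YAP1-MAML2-v2 replicate 4 was the highest of the 9 tumors outside the ventricle for 12 members, against 12.6% of all genes, and YAP1-MAML2-v2 replicate 3 for 9 members, against 13.5%. YAP1-MAML2-v2 replicate 1 was highest for 4 members (5.7% of all genes), NLS-2SA-YAP1 replicate 1 for 3 (16.1%) and YAP1-MAML2-v2 replicate 5 for 3 (12.8%). YAP1-MAML2-v2 replicate 2 (13.3%), YAP1-MAML2-v2 replicate 6 (9.17%) and NLS-2SA-YAP1 replicate 2 (7.55%) led 1 member each, and NLS-2SA-YAP1 replicate 3 (8.4%) led 0. Among the members led by replicate 4 were SNAP25, SYT1, SLC17A7, GRIN2B and VSNL1. Those led by replicate 3 included RBFOX3, STMN2 (at a deposited value of 5), GRIN2A and GRIA1. Some leads of replicate 4 rest on low deposited values: 1 for GAD2 and SLC32A1, 4 for CPLX2 and 8 for GRIN1. GAD2 in YAP1-MAML2-v2 replicate 6 and CPLX2 in YAP1-MAML2-v2 replicate 2 had the same deposited value, so only the scaling put replicate 4 first. Without TUBB3, THY1 and DLG4, the other 31 members summed to 945 CPM in the intra ventricular tumor, 113, 24.5 and 29.6 CPM in the extra axial tumors, and 33.0 to 133 CPM in the extra cranial tumors.

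No member passed the test between constructs. Of the 25 members tested, 0 passed an adjusted p of 0.05 between NLS-2SA-YAP1 and YAP1-MAML2-v2 tumors by edgeR's quasi-likelihood test with region as a term, against 0.0146% of the 13707 genes tested, which is 2 genes. At an unadjusted p under 0.05 there were 0 members, against 13.1% of all genes, and DESeq2 called 0 members, with 4 at an unadjusted p under 0.05. The lowest adjusted p of a member was 0.391 by edgeR. In no member did the 3 NLS-2SA-YAP1 values lie wholly above or below the 7 YAP1-MAML2-v2 values, as they did for 5.99% of the genes seen in any library. Fitted differences were above 0 in 8 of 25 members, against 48.4% of all genes, with a median of -0.36 against -0.03 for all genes. Without 1 library at a time, the count above 0 lay between 2 of 29, without NLS-2SA-YAP1 replicate 1, and 13 of 29, without NLS-2SA-YAP1 replicate 2 or replicate 3.

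Fitted folds between constructs or regions are given only for the 12 members above a deposited value of 1 in all 10 libraries. A fold against 0 or 1 has no clear meaning in these files. The intra ventricular tumor has its own term and adds nothing to the fitted construct difference, so means are given without it. THY1 averaged 110.3 ± 27.0 CPM in the NLS-2SA-YAP1 tumors (SD, n = 3). In the YAP1-MAML2-v2 tumors outside the ventricle it averaged 47.6 ± 39.5 CPM (SD, n = 6). The fitted log2 difference was 1.36 ± 0.67 (SE, edgeR adjusted p = 0.424). The 3 NLS-2SA-YAP1 values of THY1 were 91.5, 141 and 98.1 CPM, and the highest YAP1-MAML2-v2 value was 112 CPM, so the groups overlapped. TUBB3 averaged 596 ± 308 CPM in the NLS-2SA-YAP1 tumors and 804 ± 169 CPM in the YAP1-MAML2-v2 tumors outside the ventricle (SD, n = 3 and 6). Its fitted log2 difference was -0.45 ± 0.40 (SE, edgeR adjusted p = 0.686). DLG4 averaged 33.2 ± 0.97 CPM in the NLS-2SA-YAP1 tumors and 42.6 ± 12.8 CPM in the YAP1-MAML2-v2 tumors outside the ventricle (SD, n = 3 and 6). Its fitted log2 difference was -0.36 ± 0.34 (SE, edgeR adjusted p = 0.713). None of the 3 passed the threshold, and for each of them the values of the constructs overlapped. SCN2A (-1.30 ± 0.67), NEFL (-1.62 ± 1.14), NRGN (-1.60 ± 1.28) and CAMK2A (-1.24 ± 0.78) had the largest fitted log2 fold changes below 0, with edgeR adjusted p-values of 0.447, 0.586, 0.641 and 0.530. A p above the threshold does not show that the constructs act alike on them.

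No member passed the test between the outer regions either. Of the 25 members, 0 passed an adjusted p of 0.05 between extra axial and extra cranial tumors by edgeR, against 0.0% of the 13707 genes tested. At an unadjusted p under 0.05 there was 1 member, SYT1, against 3.01% of all genes, and DESeq2 called 0 members, with 2 at an unadjusted p under 0.05. In no member did the values of the extra axial tumors lie wholly above or below those of the extra cranial tumors, as they did for 0.843% of the genes seen in any library. Fitted differences were above 0 in 2 of 25 members, THY1 and NEFH, against 49.4% of all genes, with a median of -0.50 against -0.01 for all genes. This split rested on the YAP1-MAML2-v2 tumors of the extra axial region: without replicate 2 the differences were above 0 in 12 of 25 members, and without replicate 6 in 9 of 24.

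TUBB3 averaged 713 ± 290 CPM in the extra axial tumors (SD, n = 3) and 745 ± 223 CPM in the extra cranial tumors (SD, n = 6), for a fitted log2 difference of -0.13 ± 0.40 (SE) in the edgeR fit. THY1 averaged 79.4 ± 39.7 CPM in the extra axial tumors and 63.1 ± 51.8 CPM in the extra cranial tumors (SD, n = 3 and 6), for a fitted log2 difference of 0.65 ± 0.68 (SE). DLG4 averaged 37.3 ± 16.1 CPM in the extra axial tumors and 40.6 ± 9.66 CPM in the extra cranial tumors (SD, n = 3 and 6), for a fitted log2 difference of -0.11 ± 0.34 (SE). The adjusted p of all 12 members was 1.0 by edgeR, and the signs for TUBB3, THY1 and DLG4 turned when 1 tumor was left out.

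**Figure D4:**
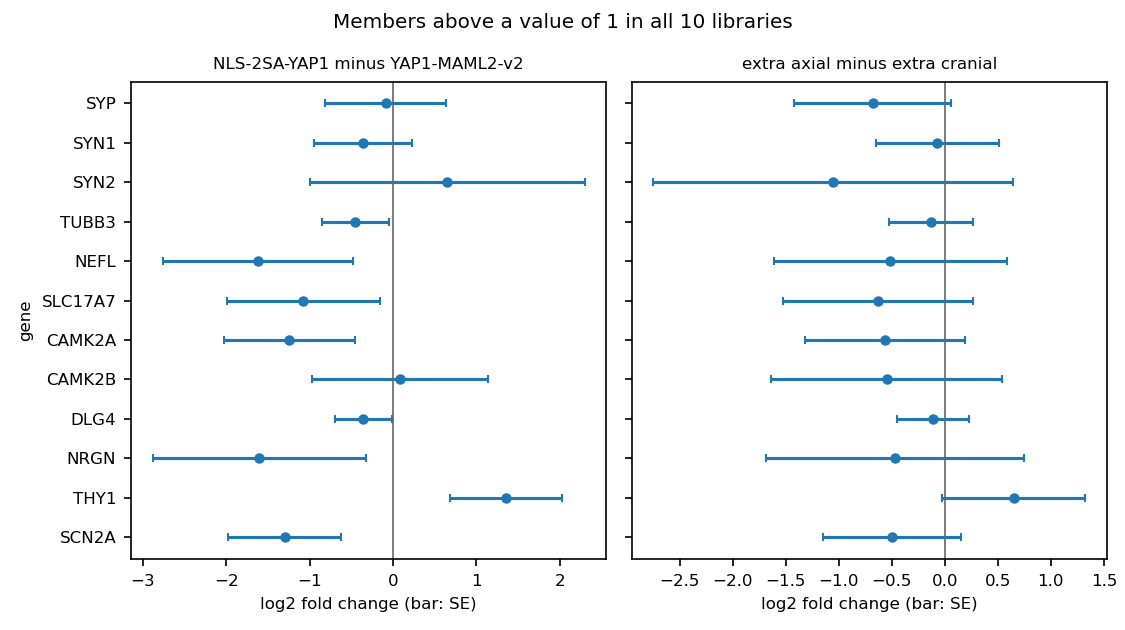
Log2 fold changes with their SE, from the edgeR fit over all genes, for the 12 members above a deposited value of 1 in all 10 libraries. The left panel sets NLS-2SA-YAP1 over YAP1-MAML2-v2 tumors and the right panel extra axial over extra cranial tumors, and no member passed the adjusted threshold in either.

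Whether the region difference depended on the construct was tested over the 9 tumors outside the ventricle, with only 1 NLS-2SA-YAP1 tumor among the extra axial ones. Of 21 members tested, 0 passed an adjusted p of 0.05 for the interaction by edgeR, against 0.00741% of the 13487 genes tested. DESeq2 called 0 members too, with 6 at an unadjusted p under 0.05. Fitted values were above 0 in 15 of the 21, against 48.8% of all genes. At an unadjusted p under 0.05 there were 6 members by edgeR, against 7.14% of all genes, with the lowest adjusted p at 0.658. They were SYN2, ELAVL3, ELAVL4, NEFM, INA and GAD1, each higher in NLS-2SA-YAP1 replicate 1 than in the extra axial YAP1-MAML2-v2 tumors. For all but SYN2, both of those YAP1-MAML2-v2 tumors were listed at 0 or 1, so the size of the interaction is not given.

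A wider set of neuronal genes was also mostly higher in the intra ventricular tumor. This set was chosen with earlier results of these data known, so it is a description and not separate support. Of 47 further genes of vesicles, cytoskeleton, channels and dense-core vesicles, 41 were highest in the intra ventricular tumor, against 21.5% of the genes seen in any library. With no filter on low values, 37 of the 47 were at least 4-fold higher there than in the other YAP1-MAML2-v2 tumors, against 15.3% of those genes, with a median log2 difference of 4.19. All 8 genes of dense-core vesicles, which store peptides, were among these 37. SCG2, a granin of these vesicles, had 460 CPM in the intra ventricular tumor and at most 14.9 CPM elsewhere, and CHGB, another granin, had 79.7 CPM there and at most 2.50 CPM elsewhere. MAP1B, a microtubule-associated protein of growing neurites, went the way of TUBB3, with 245 CPM in the intra ventricular tumor and 270 to 1631 CPM in the others. STX1A, the syntaxin that pairs with SNAP25, was also not raised, with 1.78 CPM in the intra ventricular tumor and 1.15 to 6.75 CPM in the others. MAP2, TUBB4A, GRIA4 and SHANK1 were not highest there either. MAP2 had 45.7 CPM there and 66.3 CPM in YAP1-MAML2-v2 replicate 4, and GRIA4 had 4.38 and 9.70 CPM in the same tumors. TUBB4A had 12.9 CPM there and 15.4 CPM in NLS-2SA-YAP1 replicate 1. SHANK1 had 2.49 CPM there and 6.69 CPM in YAP1-MAML2-v2 replicate 5. Between constructs edgeR called 0 of the 41 of these genes that passed the filter, with 1 at an unadjusted p under 0.05, and DESeq2 called 1, SCG2, which was listed at 0 or 1 in all 3 NLS-2SA-YAP1 tumors and in 2 of the 7 YAP1-MAML2-v2 tumors. Between the outer regions edgeR called 0, with 0 at an unadjusted p under 0.05, and DESeq2 called 0.

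Genes of neuron types were sparser. Of 10 subtype genes, 7 were highest in the intra ventricular tumor, against 21.5% of the genes seen in any library. Among them were VIP at 2.30 CPM and NPY at 3.15 CPM, both neuropeptides. Others of the 7 were low there too, with NEUROD6 at 0.0710 CPM, SST at 0.663 CPM and NEUROD2 at 0.781 CPM. RELN, a secreted guidance protein, had 0.0237 CPM in the intra ventricular tumor, a deposited value of 1, and 2.51 to 602 CPM in the others. Of 10 genes of peripheral neurons, 4 were highest in the intra ventricular tumor, against the same 21.5%. Only TH of these 4 was above 1 CPM there, at 5.99 CPM. PRPH, the intermediate filament of peripheral neurons, had 3.81 CPM in the intra ventricular tumor, and its highest value was 23.9 CPM in NLS-2SA-YAP1 replicate 1.

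Among glial genes, those of astrocytes and microglia were mostly higher in the intra ventricular tumor, as most neuronal genes were. With no filter, all 10 astrocyte genes were at least 4-fold higher there, against 15.3% of the genes seen in any library, and they summed to 5065 CPM, against 1363, 295 and 225 CPM in the extra axial tumors and 231 to 875 CPM in the extra cranial tumors. Of the 10, 9 were highest in the intra ventricular tumor. GJA1 was not, with 910 CPM there and 1174 CPM in NLS-2SA-YAP1 replicate 1. GFAP, the astrocyte filament protein, had 1204 CPM in the intra ventricular tumor and at most 39.9 CPM elsewhere, in YAP1-MAML2-v2 replicate 3. That tumor also had the highest value outside the ventricle of AQP4, the water channel of astrocyte endfeet, at 25.6 CPM against 103 CPM in the intra ventricular tumor. Of 7 microglia genes, 6 were at least 4-fold higher, against the same 15.3%, and the list summed to 1707 CPM in the intra ventricular tumor, 296 to 333 CPM in the extra axial tumors and 279 to 509 CPM in the extra cranial tumors. P2RY12, a receptor of resting microglia, had 163 CPM in the intra ventricular tumor and 0.622 to 6.95 CPM elsewhere.

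Oligodendrocyte genes went both ways: with no filter, 7 of 11 were at least 4-fold higher in the intra ventricular tumor, against 15.3% of the genes seen in any library, and 1, MBP of the myelin sheath, was lower, against 6.52%. The 11 genes summed to 735 CPM in the intra ventricular tumor, 1729, 361 and 99.2 CPM in the extra axial tumors, and 108 to 819 CPM in the extra cranial tumors. CLDN11, a tight-junction protein of myelin, made up 638 CPM of the sum in the intra ventricular tumor and 1257 CPM of that in NLS-2SA-YAP1 replicate 1. Genes of ependyma and choroid plexus, the lining and the fluid-making tissue of the ventricle, summed to 238 CPM in the intra ventricular tumor, 8.12 to 56.9 CPM in the extra axial tumors and 0.0989 to 189 CPM in the extra cranial tumors. CLIC6, a chloride channel protein, made up 189 CPM of the intra ventricular sum and reached 188 CPM in NLS-2SA-YAP1 replicate 3, an extra cranial tumor. Of their defining genes, CCDC153 had 5.83 CPM in the intra ventricular tumor, while FOXJ1 and TMEM212 had 0.0710 and 0.142 CPM. Schwann cell genes summed to 254 CPM in the intra ventricular tumor, 155 to 451 CPM in the extra axial tumors and 237 to 580 CPM in the extra cranial tumors. S100B, a calcium-binding protein that astrocytes also make, gave 130 CPM of the intra ventricular sum and at most 27.2 CPM elsewhere. Of the 10 Schwann cell genes, 5 were lowest in CPM in the intra ventricular tumor, against 16.5% of the genes seen in any library. CDH19, FOXD3 and SOX10 among these were at a deposited value of 1 there and also in other tumors. Only the scaling made those genes lowest, which leaves EGR2 and ERBB3. At least 4-fold lower were 3, EGR2, ERBB3 and FOXD3 (listed at 1 in the intra ventricular tumor), against 6.52%. Skeletal muscle genes summed to 2.58 CPM in the intra ventricular tumor, 3.88 to 11.2 CPM in the extra axial tumors and 2.44 to 415 CPM in the extra cranial tumors. The part of any of these cell types in the neuronal values was not tested, and with 1 intra ventricular tumor its region, its tissue content and the tumor itself cannot be told apart.

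**Figure D5:**
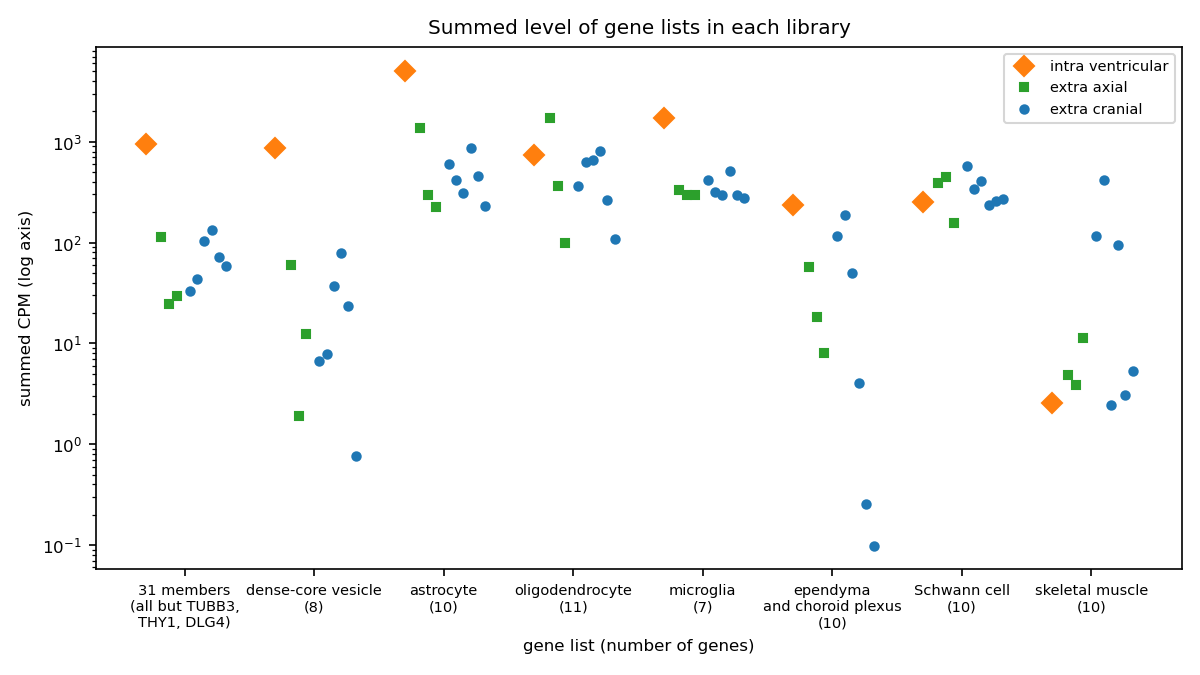
Summed CPM on a log axis of 31 members (all but TUBB3, THY1 and DLG4) and of 7 lists of other genes in each library, by region. The intra ventricular diamond is above all other points for the 31 members, dense-core vesicle, astrocyte, microglia and ependyma and choroid plexus lists, and not for the oligodendrocyte, Schwann cell and muscle lists.

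REST, the repressor that keeps many neuronal genes silent outside neurons, had 85.6 CPM in the intra ventricular tumor and 19.7 to 151 CPM in the others, so it did not set the intra ventricular tumor apart. Of the 7 listed genes of REST and its partners, 0 were at least 4-fold higher there, against 15.3% of the genes seen in any library. At least 4-fold lower was 1, HDAC2, against 6.52%, with 22.2 CPM there and 34.1 to 220 CPM in the others. The element that REST binds has a left and a right arm, searched here as the exact letters CAGCACC and GGACAGC on both strands. Promoter windows of RefSeq (GRCm38.p6), from 250 bases before to 50 bases after a gene's start, were found for 24 of the 34 members, in 34 windows. The left arm was found in 3 of 34 member windows (8.82%), against 7.14% of all 32851 windows, and the right arm in 3 of 34 (8.82%), against 6.56% of all windows. At least 1 arm was found in 5 of 34 member windows (14.7%), against 13.1% of all windows, so exact matches to an arm were about as frequent there. Both arms were found in 1 of 34 (2.94%), against 0.575% of all windows. The search took exact letters only and did not ask that the arms lie side by side. It therefore cannot tell whether a window holds the whole element. A match is a description and not a binding site.

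Of the 5 windows with a match, 4 are shown because their genes behaved differently. SYN1 held a pair of left arms, and GAD2 and GRIA2 were near 0 in most tumors outside the ventricle. TUBB3, abundant in every tumor, was the only member whose window held an exact match to both arms. Those matches begin at -121 and 11 bases from the RefSeq start used for the window, so they do not lie side by side. That start differs from the GENCODE start of TUBB3 given above. The windows shown are chrX:20920869-20921168 (minus strand) for SYN1, chr2:22622077-22622376 (plus strand) for GAD2, chr3:80802786-80803085 (minus strand) for GRIA2 and chr8:123411303-123411602 (plus strand) for TUBB3. They are written along the gene's strand, and capitals mark the matched letters of an arm on either strand.
SYN1: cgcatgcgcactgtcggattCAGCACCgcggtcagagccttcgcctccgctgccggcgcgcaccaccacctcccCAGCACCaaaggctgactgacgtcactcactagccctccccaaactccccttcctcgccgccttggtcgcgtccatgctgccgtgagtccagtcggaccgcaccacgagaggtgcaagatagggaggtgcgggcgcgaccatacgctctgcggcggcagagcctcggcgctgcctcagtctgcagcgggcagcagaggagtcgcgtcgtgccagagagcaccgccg
GAD2: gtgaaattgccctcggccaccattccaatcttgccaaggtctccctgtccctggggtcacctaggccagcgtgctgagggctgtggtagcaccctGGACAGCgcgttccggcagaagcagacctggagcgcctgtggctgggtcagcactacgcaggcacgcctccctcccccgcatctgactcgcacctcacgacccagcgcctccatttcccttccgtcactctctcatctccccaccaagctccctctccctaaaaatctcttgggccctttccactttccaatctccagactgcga
GRIA2: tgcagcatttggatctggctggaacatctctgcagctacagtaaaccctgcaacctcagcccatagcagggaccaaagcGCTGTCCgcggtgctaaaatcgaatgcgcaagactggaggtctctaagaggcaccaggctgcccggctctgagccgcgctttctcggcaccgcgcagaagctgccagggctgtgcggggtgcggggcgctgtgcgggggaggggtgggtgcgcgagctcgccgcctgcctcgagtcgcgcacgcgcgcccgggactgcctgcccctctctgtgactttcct
TUBB3: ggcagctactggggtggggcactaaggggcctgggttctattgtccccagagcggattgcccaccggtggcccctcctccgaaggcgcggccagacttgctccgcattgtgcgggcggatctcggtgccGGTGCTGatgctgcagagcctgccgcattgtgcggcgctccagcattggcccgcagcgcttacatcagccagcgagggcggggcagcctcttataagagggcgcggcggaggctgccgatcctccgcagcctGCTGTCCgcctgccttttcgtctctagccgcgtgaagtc
In GRIA2 and TUBB3 the capitals are the reverse complement of the searched letters. Beside the marked right arm of GAD2 and of GRIA2 lies a stretch that matches the left arm but for its first letter. The exact search did not count it. SYN1 and TUBB3, both with exact matches to an arm, differed in sign in the intra ventricular comparison, with log2 differences of 3.20 and -1.13. The part of REST in these differences was not tested.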

How the data were processed

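RNA of 10 mouse tumors was measured with stranded mRNA libraries. The submitters' processing notes name HTSeq and the build mm10. Not given in the sources used here are the aligner, the strand setting, the annotation and how symbols took a human style. The authors deposited whole numbers per gene, which were treated as estimated counts, since genes at 1 outnumber genes at 2 by 4.54 to 6.82 times in each library. Of the 340 member values, 63 are 0, 45 are 1 and 7 are 2. Hence no interval or floor from counting is given. The design had assumed counts, and the values needed no rounding.

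Groups, replicate numbers and regions came from the labels. Genes were filtered with filterByExpr by construct (minimum count 10), scaled by TMM and fitted with edgeR 4.0.16 (R 4.3.3), quasi-likelihood test, on all 10 libraries, with terms for construct and for region. P-values were adjusted by the Benjamini-Hochberg method across every gene of the fit, with a threshold of 0.05. Log2 fold changes set NLS-2SA-YAP1 over YAP1-MAML2-v2, or extra axial over extra cranial; the SE is the fold's size over the root of F. The intra ventricular library has its own term and no test. The steps were tested on simulated data. Alternatives used DESeq2 1.42.0, limma 3.58.1, other scalings and filters, and fits without each library. Coordinates are from GENCODE M21 (mm10). The members were taken by name and not by a measured threshold, but they and the lists were chosen with earlier results of these data known. All members are named. Of other lists, the defining genes (the first 3) and the highest and lowest in the intra ventricular tumor are named by rule, and any other (HDAC2, NPY, S100B and the 3 lower Schwann cell genes among them) was chosen after its values were seen. SHANK3 was not analysed here.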

Additional observations from a re-analysis of the deposited data

Results flagged for a closer look

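Of 68 gene and group combinations examined, 18 had 1 tumor set apart from the rest of its group on the log2 CPM scale, measured as the gap to the nearest other tumor over the whole range; chance flags about 1 in 20 groups. Within the YAP1-MAML2-v2 group (n = 7), the intra ventricular replicate 7 stood alone at the top for GAD2 (0.885), CPLX2 (0.864), STMN2 (0.844), SLC32A1 (0.839), GRIN1 (0.735), CAMK2A (0.678), SYN1 (0.634), SCN2A (0.624) and RBFOX3 (0.577). These are the values described for that tumor above, seen from within its construct. In the same group, replicate 5 stood alone at the bottom for STMN3 (0.615).

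Within the extra cranial group (n = 6), YAP1-MAML2-v2 replicate 4 stood alone at the top for CPLX2 (0.853), GRIN2B (0.822), SLC17A7 (0.666), GAD2 (1.0) and SLC32A1 (1.0). For GAD2 and SLC32A1 this is a deposited value of 1 in that tumor against 0 in the other 5, so nothing follows from it. YAP1-MAML2-v2 replicate 3 stood alone at the top for STMN2 (0.871). YAP1-MAML2-v2 replicate 5 stood alone at the bottom for STMN3 (0.813), at a deposited value of 1, and NLS-2SA-YAP1 replicate 2 for NEFM (0.884), at 0.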

How the results depend on the processing

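No member passed the adjusted threshold between constructs under any of 19 alternatives, between the outer regions under any of 17, or for the interaction under DESeq2. Over all genes, the construct comparison called 2 genes by edgeR, 4 without a filter, 4 by limma-trend, 4 in extra cranial tumors only, 95 by limma-voom with quality weights and 685 by DESeq2, with 0 to 2 without 1 library. The region comparison called 0 by edgeR, 31 by DESeq2 and 0 to 1 without 1 library, and the interaction 1 by edgeR and 204 by DESeq2. In the intra ventricular comparison 22 members were at least 4-fold higher without any 1 library; 9 of 12 members tested were called once genes over 100 in a library and at 0 or 1 in another were left out, against 8.42% of 12371 genes. The count at least 4-fold lower was 0 with DESeq2 size factors (6.7% of all genes), 2 of 25 at a 2-fold limit (20.8% of all genes), and 0 to 1 without 1 library (0 without YAP1-MAML2-v2 replicate 5 or 6). The deviations of same-numbered tumors from their group means correlated at 0.170, 0.360 and 0.0364. Tumors with unlike numbers were not compared in this way, so the check cannot decide whether same-numbered tumors pair. A replicate block over replicates 1 to 3 called 0 of 20 members. Signs of log2 folds turned as follows. Between constructs, SYN2 (0.65) was -0.71 by limma-voom, -1.23 without the region term, -1.58 in extra cranial tumors, -0.46 with the replicate block and -0.79 in those tumors unblocked. CAMK2B (0.08) was -0.73, -1.45, -1.32, -0.50 and -0.84 under the same 5 settings, and NRGN was 0.07 unblocked. Without 1 library, SYP ran from -0.64 to 0.33, SYN2 from -1.58 to 2.04 and CAMK2B from -1.32 to 0.89. Between regions without 1 library, SYN1 ran from -0.46 to 0.28, SYN2 from -3.35 to 0.26, TUBB3 from -0.27 to 0.18, NEFL from -1.70 to 0.50, SLC17A7 from -0.83 to 0.14, CAMK2B from -1.98 to 0.24, DLG4 from -0.46 to 0.19, NRGN from -1.54 to 0.18 and THY1 from -0.16 to 1.19. TUBB3 was 0.20 in YAP1-MAML2-v2 tumors only and NRGN 0.61 by limma-voom. The unblocked fit and the DESeq2 interaction were chosen after seeing the data. The cause of these turns was not tested. Low levels outside the ventricle rest on deposited values near 0 and 1, whose depth is unknown.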
